A study of Mus musculus with 192 samples.

Results

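The genes described here encode the nuclear part of the mitochondrial respiratory chain, measured in individual cells of the R1 line, which are mouse embryonic stem (ES) cells. They were chosen by name: all features named for the Nduf subunits and assembly factors of complex I, the Sdh subunits of complex II, the Uqcr genes and Cyc1 of complex III, cytochrome c (Cycs), the numbered Cox4 to Cox8 subunits of complex IV, and the Atp5 genes of ATP synthase (complex V). This gave 93 of the 24264 genes in the molecule table. Of these, 84 encode subunits: 38 of complex I, 4 of complex II, 10 of complex III (Cycs included), 17 of complex IV and 15 of complex V. The other 9 are 6 Ndufaf assembly factors, Cox7a2l, Atp5s and Atp5sl.

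The cells had been grown on irradiated feeder fibroblasts, separated from them by settling and depleted of dead and early apoptotic cells before capture on 1 microfluidic chip with 96 wells. The 192 samples in the labels are the same 96 cell libraries, sequenced as made and after 9 further PCR cycles, with each of 96 barcodes shared by 2 samples. The table has 1 column per well, so the effect of the further cycles was not analysed here. All wells came from one culture, which makes them 1 sample: every spread below is a spread between wells, no p-value was computed, and no difference below has a replicate check.

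Wells fell into 45 low-RNA wells, with a median of 22234 gene molecules (8774 to 35543), and 51 RNA-rich wells, with a median of 98750 (51390 to 573648). Spike-in RNAs, added in the same amount to each well, gave a median of 6098 molecules in low-RNA wells (926 in H12 to 7863) and 7992 in RNA-rich wells (6603 to 55740 in H03). The summed level of 13 ES cell markers was a median of 53.6 molecules per 10000 gene molecules in low-RNA wells (38.5 to 144) and 94.2 in RNA-rich wells (18.2 to 227). Most of this sum was Dppa5a, with means of 38.9 in low-RNA wells and 70.3 in RNA-rich wells. Of the 11 markers past the level filter (below), 5 were at least 1.5-fold lower in low-RNA wells, beside 37.5% of all genes. Sox2 and Sall4 had ratios of low-RNA over RNA-rich means of 1.28 and 1.10, and the other 9 lay below 1. Several wells stood apart. H12 is a low-RNA well with few spike-ins and the highest ES marker sum of its class. C03 and H03, RNA-rich wells with 319520 and 573648 gene molecules, had the most spike-in molecules, at 36465 and 55740. They were kept in their class and left out with H12 in an alternative below. E02 and D02, both RNA-rich, had feeder fibroblast marker sums of 131 and 129, against a median of 6.40 in RNA-rich wells, and 9 RNA-rich wells held at least 20 per 10000 of the keratins Krt8 and Krt18. Whether a chamber held an intact cell was not analysed here.

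The respiratory chain carries electrons from NADH (complex I) and succinate (complex II) through ubiquinone to complex III, from there by cytochrome c to complex IV, which reduces oxygen, and the proton gradient this builds drives ATP synthase. Complexes I, III, IV and V each combine subunits made from nuclear genes with subunits encoded in mitochondrial DNA, while complex II is wholly nuclear. Mouse ES cells are known to draw on both glycolysis and respiration.

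Levels are molecules per 10000 gene molecules of the well. Because molecules rather than fragments were counted, levels were not divided by transcript length, and whether transcript length affects capture was not tested. A molecule was found in at least 1 well for 90 members. The other 3, Cox6a2 and Cox8b, known as muscle isoforms, and Cox8c, known as a testis isoform, had 0 molecules among 6847551 gene molecules, which allows a level of up to 0.00438 per 10000 (3 counts, counting error only). The subunit genes gave 224876 molecules in all. They were detected broadly: a median of 72 subunit genes had a molecule in low-RNA wells (59 to 77) and 77 in RNA-rich wells (74 to 80). Of the 93 members, 32 had a molecule in every low-RNA well and 68 in every RNA-rich well.

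The levels within each complex were uneven. In complex IV, Cox7c, a small subunit of the enzyme, had the highest level of all members, with 11.9, 18.3 and 63.1 molecules per 10000 as the lowest, median and highest of low-RNA wells, and 15.3, 28.997 and 40.3 in RNA-rich wells. Next in complex IV came Cox8a, at a mean of 8.19 in low-RNA wells and 12.4 in RNA-rich wells, and Cox7a2, at 6.64 in low-RNA wells and 11.8 in RNA-rich wells. In complex V, Atp5b, the catalytic beta subunit, had 3.60, 8.09 and 15.9 as lowest, median and highest of low-RNA wells, and 6.07, 12.7 and 18.7 in RNA-rich wells. Thus the ranges of the classes overlapped for single genes even where the medians lay well apart. Atp5g3 and Atp5j2 followed Atp5b, with RNA-rich means of 9.66 and 9.01.

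In complex III the carrier Cycs led, with means of 6.34 in low-RNA wells and 10.3 in RNA-rich wells. Its level is uncertain, since only 2.51% of its molecules came from uniquely mapped reads. After it came Uqcr10 and Uqcr11, small subunits, at 7.63 and 6.20 in RNA-rich wells. In complex I, Ndufa4 led with 6.16 in low-RNA wells and 9.87 in RNA-rich wells. It is grouped here by its name, although its protein is now placed in complex IV. Ndufa7 and Ndufa2, both accessory subunits, had 5.99 and 5.76 in RNA-rich wells.

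The core genes of complex I, which carry out electron transfer, lay at or below the median of the complex. Nuclear core genes had RNA-rich means such as 0.705 (Ndufs1, a large iron-sulfur subunit) and 2.66 (Ndufv2, an iron-sulfur subunit), with Ndufv1, which binds the flavin, at 1.61, Ndufs7 at 1.60, Ndufs3 at 1.25 and Ndufs8 at 1.24. The median over the 36 complex I subunit genes past the level filter (below) was 2.70. Among these, Ndufa4 at 9.87 was the highest and Ndufs1 at 0.705 the lowest in RNA-rich wells. Complex II, with only 4 genes, had the narrowest range, with Sdhb, Sdhd, Sdhc and Sdha at 2.07, 1.95, 1.83 and 1.68. This is a ratio of 1.23 between highest and lowest. Over genes past the filter, the same ratio was 7.32 in complex III (10 genes), 19.7 in complex IV (11) and 5.85 in complex V (15). Such a ratio can only rise as genes are added. In complex III the highest gene was Cycs, which is uncertain. In complex IV the lowest was Cox6b2 at 1.39, known as a testis isoform.

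Subunits that sit together in one enzyme were not matched in RNA. The alpha and beta subunits of the F1 head of ATP synthase occur in equal number in the protein complex, yet Atp5b exceeded Atp5a1 2.06 times in the low-RNA means and 2.32 times in the RNA-rich means. Atp5b was the higher of the pair in 41 of 45 low-RNA wells and 49 of 51 RNA-rich wells. The other F1 genes had RNA-rich means of 7.09 (Atp5e), 5.40 (Atp5c1) and 2.17 (Atp5d). The c ring, made of identical proteins from 3 genes, summed to 9.02 in low-RNA wells and 15.8 in RNA-rich wells, with Atp5g3 contributing most, Atp5g1 3.58 and Atp5g2 2.59 of the RNA-rich sum. Atp5g2 is uncertain, with 30.9% unique.

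Tissue isoforms of complex IV were far below their common partners, with 1 exception. Cox4i2, the lung isoform, gave 3 molecules in all, in 1 RNA-rich well, beside a mean of 7.82 for Cox4i1 in RNA-rich wells. Cox7b2, a testis isoform, gave 1 molecule in low-RNA wells and 28 in RNA-rich wells. Cox7a1, the heart and muscle isoform, was found in 29 of 45 low-RNA wells and 45 of 51 RNA-rich wells, at means of 0.407 in low-RNA and 0.477 in RNA-rich wells, and Cox7a2 was the higher in every well of both classes. Cox6b2, known as a testis isoform, was the exception, with means of 0.944 in low-RNA wells and 1.39 in RNA-rich wells, and it was found in 35 low-RNA and all 51 RNA-rich wells. Its partner Cox6b1 had 4.87 times its level in low-RNA wells and 6.33 times in RNA-rich wells. Cox6a1, whose muscle form was at 0, had means of 3.44 in low-RNA wells and 6.21 in RNA-rich wells. Ndufa4l2, a hypoxia-induced relative of Ndufa4, gave 1 molecule in low-RNA wells and 8 in RNA-rich wells, and Ndufs5, an accessory subunit, gave 0 in low-RNA wells and 17 in RNA-rich wells.

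**Figure D1:**
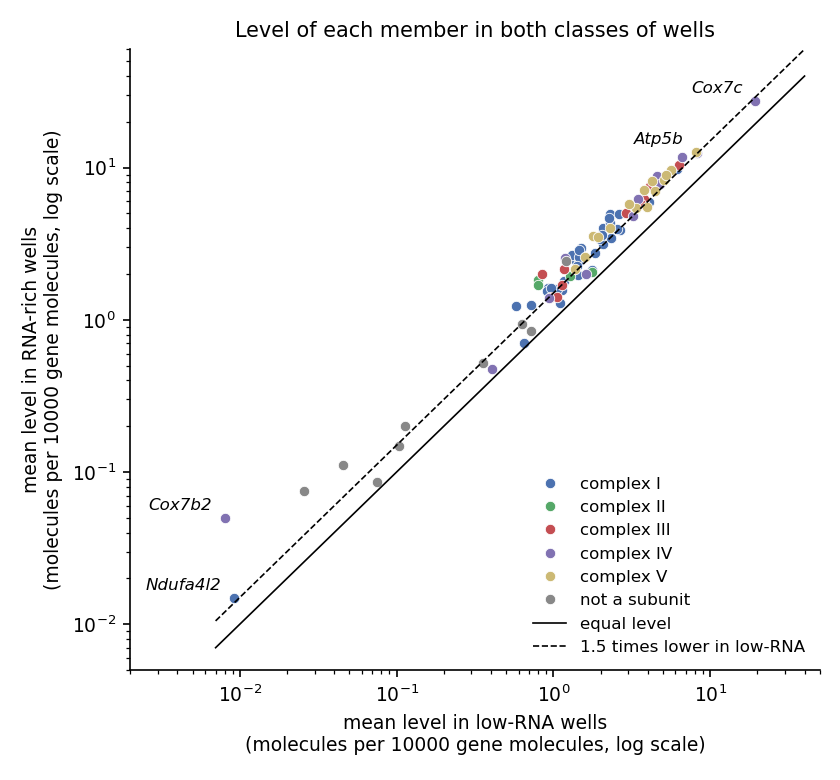
Mean level of members in low-RNA wells (x axis) and RNA-rich wells (y axis), in molecules per 10000 gene molecules on log axes, coloured by complex. Members with 0 molecules in a class are not drawn. All points drawn lie above the line of equal level, most of them around or above the dashed line of 1.5 times, and Cox7c is the highest at 19.3 in low-RNA wells and 27.5 in RNA-rich wells.

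Respiratory chain RNA made up a smaller part of all gene molecules in low-RNA wells. The summed level of the 84 subunit genes was 160, 204 and 451 as lowest, median and highest of low-RNA wells, and 216, 353 and 405 in RNA-rich wells, a ratio of medians of 0.579. H12 gave the highest low-RNA value and H08 the lowest RNA-rich value. These wells were chosen for their values. Without them the classes did not overlap, with 256 as the highest low-RNA value and 270 as the lowest RNA-rich value. With mitochondrially encoded genes left out of the total, the classes overlapped even without these wells. There the highest low-RNA value was 349 and the lowest RNA-rich value 294. The classes were set by the total of gene molecules, which is also the denominator of the level.

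Each complex was lower by a like amount. Complex I had medians of 65.4 in low-RNA wells and 109.7 in RNA-rich wells, a ratio of 0.596. Complex III had 25.4 in low-RNA wells and 43.8 in RNA-rich wells (0.580). Complex IV had 58.3 in low-RNA wells and 95.4 in RNA-rich wells (0.611), and complex V 54.9 in low-RNA wells and 95.2 in RNA-rich wells (0.576). Complex II, the smallest sum, had 4.62 in low-RNA wells and 7.19 in RNA-rich wells (0.644) with broad overlap. The division of subunit molecules among the complexes was therefore close in both classes. In low-RNA wells complexes I to V took medians of 31.4%, 2.30%, 12.4%, 27.8% and 26.4%, and in RNA-rich wells 31.6%, 2.10%, 12.4%, 26.7% and 27.2%.

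**Figure D2:**
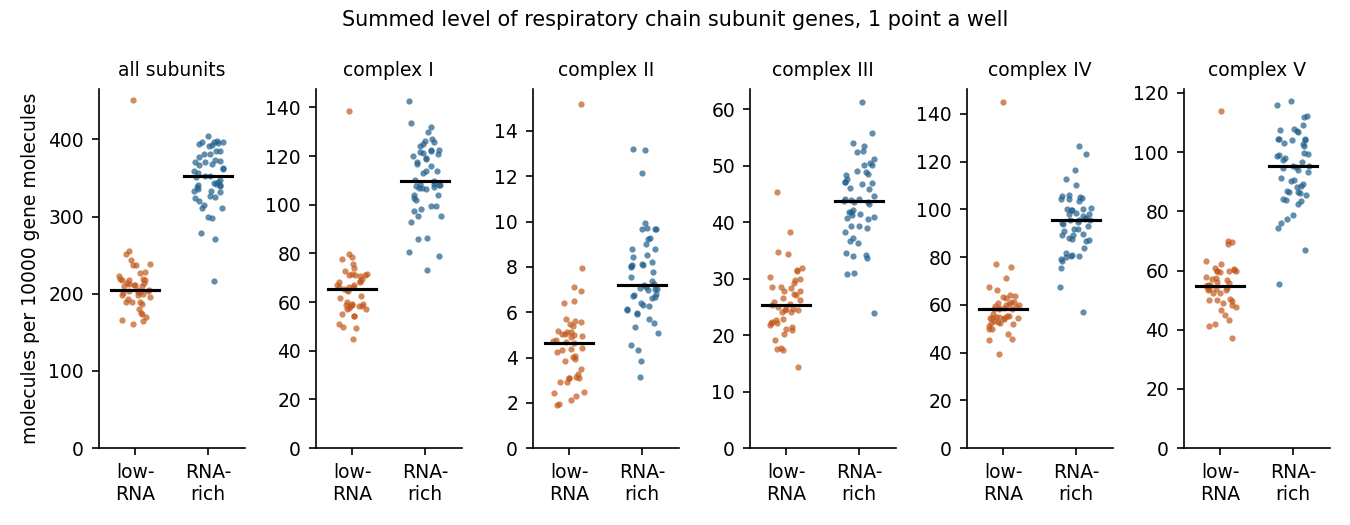
Summed level of all 84 subunit genes and of each complex, in molecules per 10000 gene molecules, with 1 point per well, low-RNA wells left and RNA-rich wells right, and a bar at the median. The medians of all subunits are 204 in low-RNA wells and 353 in RNA-rich wells, and the 1 low-RNA well far above its class in all subunits and in complexes I, IV and V is H12.

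Gene by gene, members were compared where the mean of both class means was at least 0.5 per 10000, a filter that 79 members passed. A fold of at least 1.5 between class means was counted. Of the 79, 60 were lower in low-RNA wells by this rule, 0 were higher, and 19 lay within it, while among all genes past the same filter 37.5% were lower and 10.3% were higher. All 79 had a ratio of low-RNA over RNA-rich below 1, beside 2042 of all 2694 genes past the filter. The members' median ratio was 0.598, against 0.737 for all 2694 genes. By complex, 27 of 36 genes were lower in complex I, 3 of 4 in complex II, 8 of 10 in complex III, 7 of 11 in complex IV and 14 of 15 in complex V. Among the members that are no subunit, 3 passed the filter: the supercomplex factor Cox7a2l (ratio 0.488) and the complex I assembly factors Ndufaf2 (0.671) and Ndufaf4 (0.860). The 11 members with molecules that did not pass were Ndufs5, Ndufa4l2, Cox4i2, Cox7a1, Cox7b2, Ndufaf1, Ndufaf3, Ndufaf5, Ndufaf6, Atp5s and Atp5sl. At a limit of 2-fold, 10 of the 79 members were lower, beside 8.05% of all genes.

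Mitochondrially encoded RNA held a median of 29.1% of gene molecules in low-RNA wells and 10.4% in RNA-rich wells, and this RNA is part of the denominator. With mitochondrially encoded genes left out of the total, the summed subunit level was a median of 297 per 10000 in low-RNA wells (202 to 488) and 396 in RNA-rich wells (252 to 453), a ratio of 0.750. Then 17 of 81 members were at least 1.5-fold lower and 0 higher, beside 11.5% lower among all genes on that scale. There 74 of the 81 had a ratio below 1, beside 1802 of 3199 genes, and Ndufs1 had 1.16. Relative to spike-ins, the difference was larger: a median of 7.69 subunit molecules per 100 spike-in molecules in low-RNA wells and 44.2 in RNA-rich wells. Since the classes were set by gene molecules, a lower value on this scale follows largely from the class rule. With few molecules per well, fewer transcripts in the cell and poorer recovery of them cannot be told apart.

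Among the lowest ratios was that of Uqcrc1, a core subunit of complex III, with 0, 0.715 and 3.06 as lowest, median and highest of low-RNA wells, and 0.379, 1.92 and 3.87 in RNA-rich wells. This is a ratio of means of 0.424. Pooled over the class, 86 molecules in low-RNA wells and 1149 in RNA-rich wells gave a ratio of 0.432, with an exact 95% interval of 0.343 to 0.538 that covers counting error only. Next came Sdhc, a membrane anchor of complex II (0.433), Ndufb8, an accessory subunit of complex I (0.463), and Cox5a, a subunit of complex IV (0.465).

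At the other end stood Ndufs1, with means of 0.651 in low-RNA wells and 0.705 in RNA-rich wells, a ratio of 0.924. Its pooled ratio of 0.915 had an interval of 0.691 to 1.19. After it came the assembly factor Ndufaf4 (0.860), the accessory subunits Ndufb3 (0.855) and Ndufb9 (0.823), and Sdhb (0.848), the iron-sulfur subunit of complex II. Members of one enzyme therefore stood at both ends. Sdhb was 2.19 times Sdha in the low-RNA means and 1.23 times in the RNA-rich means. This pair was chosen after its values were seen. Among the c ring genes, ratios were 0.503 for Atp5g1, 0.617 for Atp5g2 and 0.582 for Atp5g3.

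**Figure D3:**
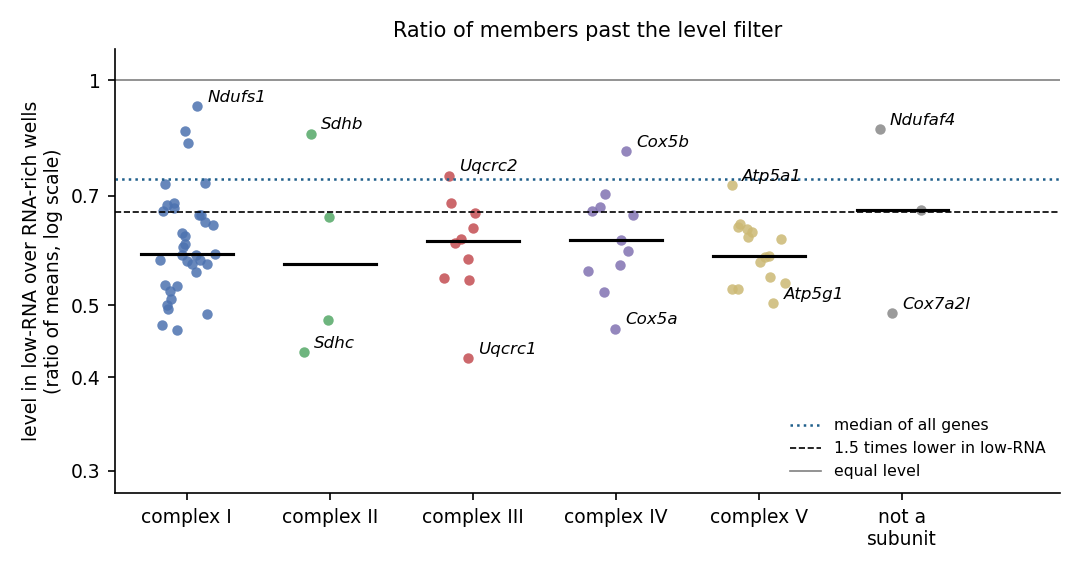
Ratio of the mean level in low-RNA wells over that in RNA-rich wells for members past the level filter, on a log axis, by complex, with a bar at the median of the points drawn. All points lie below 1, most lie below the dotted median of all genes at 0.737, with Uqcrc1 at 0.424 among the lowest and Ndufs1 at 0.924 the highest.

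Promoter windows of 4 members are shown, for members at both ends of the ratio and for the electron carrier, since nuclear respiratory genes are known to be bound by the factors NRF1, GABP (of the ETS family) and YY1. Each window runs from 250 bases before to 50 bases after the transcription start, on the gene's strand, from RefSeq on GRCm38.p6. Uqcrc1 (chr9:108936398-108936697, plus strand) and Ndufb8 (chr19:44555393-44555692, minus strand) were among the 5 lowest ratios, Sdhb (chr4:140961021-140961320, plus strand) among the 5 highest, and Cycs (chr6:50566520-50566819, minus strand) carries electrons between complexes III and IV. Capitals mark the motif match. All 4 windows shown hold a match, which most members with a window do not, so they do not stand for the other members.
Uqcrc1: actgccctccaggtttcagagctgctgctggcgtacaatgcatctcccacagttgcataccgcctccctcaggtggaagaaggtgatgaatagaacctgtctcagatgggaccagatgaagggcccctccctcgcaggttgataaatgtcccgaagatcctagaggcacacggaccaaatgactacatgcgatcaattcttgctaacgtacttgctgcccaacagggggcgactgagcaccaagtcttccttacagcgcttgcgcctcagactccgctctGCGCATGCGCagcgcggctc
Ndufb8: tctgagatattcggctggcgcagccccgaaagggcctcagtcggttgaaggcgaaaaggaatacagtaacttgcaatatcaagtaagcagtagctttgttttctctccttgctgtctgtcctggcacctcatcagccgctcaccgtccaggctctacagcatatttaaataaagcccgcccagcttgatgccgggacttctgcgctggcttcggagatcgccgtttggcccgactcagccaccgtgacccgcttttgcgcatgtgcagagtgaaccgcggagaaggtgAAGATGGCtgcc
Sdhb: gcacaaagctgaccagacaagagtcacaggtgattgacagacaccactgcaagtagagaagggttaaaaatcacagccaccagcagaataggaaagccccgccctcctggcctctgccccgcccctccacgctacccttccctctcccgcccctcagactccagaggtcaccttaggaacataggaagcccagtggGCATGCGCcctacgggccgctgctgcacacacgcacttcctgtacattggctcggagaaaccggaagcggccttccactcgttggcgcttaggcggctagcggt
Cycs: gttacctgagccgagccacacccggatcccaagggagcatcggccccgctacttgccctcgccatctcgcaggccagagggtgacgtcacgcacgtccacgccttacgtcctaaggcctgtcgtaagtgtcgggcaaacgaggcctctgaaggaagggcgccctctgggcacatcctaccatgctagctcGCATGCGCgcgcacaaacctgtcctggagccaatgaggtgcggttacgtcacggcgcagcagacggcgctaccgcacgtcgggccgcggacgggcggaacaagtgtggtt

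These windows hold the NRF1 core GCGCATGC in Uqcrc1, Sdhb and Cycs, and the YY1 core AAGATGGC in Ndufb8. Matches were sought on both strands. In Uqcrc1 the match is found on both strands with overlap, starting at positions 31 and 33 with the start site counted as 1, because the core is nearly its own reverse complement. In Sdhb and Cycs it begins at positions -54 and -60, and in Ndufb8 the YY1 core begins at position 39. Of the 76 members with a window, 13 (17.1%) held the NRF1 core, beside 3.94% of 17492 protein-coding genes, 11 (14.5%) held the YY1 core beside 3.57%, and 5 (6.58%) held the ETS core CCGGAAGT beside 5.69%. The motifs were chosen after the data had been seen, and a match is a description and not a binding site.

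Ratios were close with and without each motif. The 12 members with an NRF1 core that passed the level filter had a median ratio of 0.595 (0.424 to 0.860), and the 55 others with a window 0.584. For the YY1 core the medians were 0.592 in 10 members and 0.585 in 57, and for the ETS core 0.605 in 5 members and 0.585 in 62.

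Other genes of mitochondrial and energy metabolism were described in the same way from pathway lists. Of 14 tricarboxylic acid cycle genes, 11 passed the level filter, 6 were at least 1.5-fold lower in low-RNA wells and 0 higher, with a median ratio of 0.619. Of 12 glycolysis genes, 9 passed, 8 were lower and 0 higher, with a median of 0.511. Of 76 mitochondrial ribosomal protein genes, 57 passed and 32 were lower (median 0.641), and of 91 cytosolic ribosomal protein genes 85 passed and 56 were lower (median 0.610). The members' median of 0.598 thus lay within the range of these lists. Among all genes past the filter, 37.5% were lower, and the median ratio was 0.737. Without mitochondrially encoded genes in the total, 1 of 12 tricarboxylic acid cycle genes and 5 of 9 glycolysis genes were lower. So were 14 of 66 mitochondrial and 12 of 86 cytosolic ribosomal protein genes, beside 11.5% of all genes. Assembly factors were mostly too low to compare: of 23 from outside the name rule only Cox17, a copper chaperone of complex IV, at means of 3.17 in low-RNA wells and 4.05 in RNA-rich wells, and Cox16, at 0.489 in low-RNA and 0.849 in RNA-rich wells, passed. Of 12 regulators, Tfam, which packages mitochondrial DNA, had means of 0.533 in low-RNA wells and 0.720 in RNA-rich wells, and Pprc1, a coactivator, 0.621 in low-RNA wells and 0.382 in RNA-rich wells. These 2 were the regulators that passed.

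The mitochondrially encoded partners went the other way. All 13 mitochondrial mRNAs were at least 1.5-fold higher in low-RNA wells, with a median ratio of 2.47. The 7 mitochondrial genes of complex I summed to a median of 418 per 10000 in low-RNA wells and 178 in RNA-rich wells, so that a median of 6.51 mitochondrial molecules stood beside each nuclear complex I molecule in low-RNA wells and 1.57 in RNA-rich wells. For complex IV, with 3 mitochondrial genes, this was 18.8 in low-RNA wells and 4.00 in RNA-rich wells, for complex III, with mt-Cytb alone, 6.42 in low-RNA and 1.40 in RNA-rich wells, and for complex V 7.13 in low-RNA and 1.42 in RNA-rich wells. In all, the wells held a median of 10.0 nuclear subunit molecules per 100 mitochondrial mRNA molecules in low-RNA wells (6.55 to 79.8 in H12) and 46.7 in RNA-rich wells (21.2 to 79.6). Apart from H12, the highest low-RNA well had 19.6, below the lowest RNA-rich well. Of the 13 mitochondrial mRNAs, 7 had under 50% unique, mt-Co1, mt-Co2, mt-Co3, mt-Atp6, mt-Atp8, mt-Nd3 and mt-Nd4l, and are uncertain.

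Within RNA-rich wells the 2 genomes ran weakly opposite. The Spearman correlation of the nuclear subunit sum with the mitochondrial mRNA sum over 51 wells was -0.35 (Pearson r = -0.34), and -0.35 (-0.35) without the 2 wells farthest from the median in mitochondrial mRNA. With mitochondrial genes out of the denominator it was -0.098. Both sums share the well, its depth and its denominator, so these are descriptions. Over the same wells the subunit sum had rho of 0.69 with cytosolic ribosomal protein genes, 0.61 with mitochondrial ribosomal protein genes, 0.47 with glycolysis genes and 0.047 with the tricarboxylic acid cycle. The Pearson values were 0.78, 0.67, 0.52 and 0.11 in that order.

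**Figure D4:**
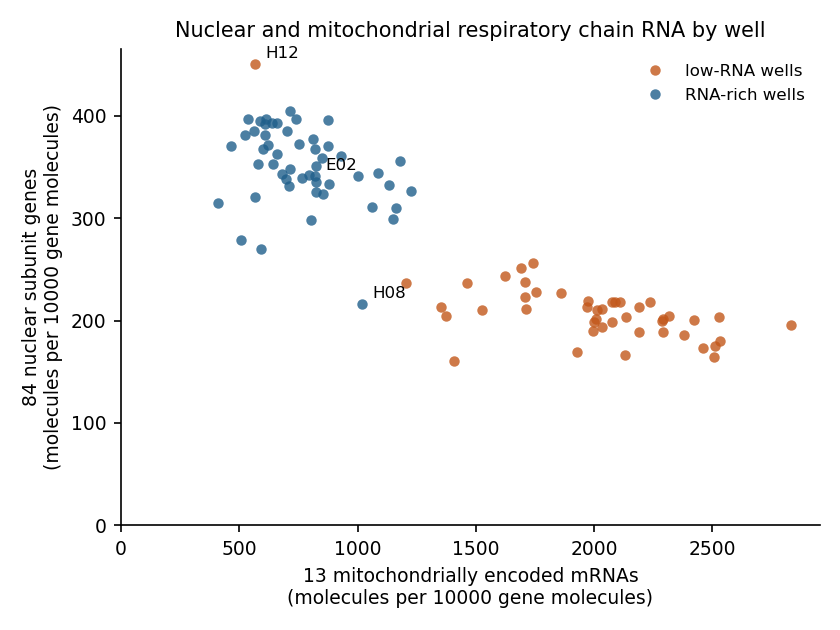
Summed level of 84 nuclear subunit genes (y axis) against that of 13 mitochondrially encoded mRNAs (x axis), both in molecules per 10000 gene molecules, with 1 point per well. The low-RNA wells lie at a median of 2033 mitochondrial and 204 nuclear molecules and the RNA-rich wells at 740 and 353. H12 lies within the RNA-rich range on the x axis and above every RNA-rich well on the y axis, and H08 lies near the low-RNA wells.

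At full depth, complexes other than II varied together among RNA-rich wells to a moderate degree. Rank correlations of the summed levels were 0.58 for complexes III and IV, 0.54 for I and V, 0.46 for IV and V, 0.42 for I and III and for I and IV, and 0.40 for III and V. Complex II, with a median sum of 7.19 per 10000, had from -0.016 to 0.20 with the others, and its sparse counts give no basis for reading an absence of relation. With wells thinned to 8000 gene molecules, III and IV were at 0.41, I and IV at 0.31, I and III at 0.27, III and V at 0.17, I and V at 0.057 and IV and V at -0.023, each lower than at full depth. Single members followed the sum of the other subunits loosely, at a median rho of 0.25 over 81 members (-0.089 for Uqcrb to 0.56 for Ndufb4, which is uncertain with 5.58% unique), and 72 were above 0. The same measure was not computed for all genes. Since levels share the denominator of the well, these values do not show a relation particular to the members.

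Between RNA-rich wells most members spread less than 2 times as far, in squared terms, as spike-ins of the same mean. Technical noise was taken from 65 spike-ins, whose squared coefficient of variation (CV) followed 3.23/mean + 0.00874, against 1/mean for counts drawn singly and independently. A member was counted above noise where it averaged at least 1 molecule per well and had a squared CV of 2 times the fit or more, in all wells and also with its highest well left out. By this rule 8 of 84 members were above noise, beside 7.0% of 7768 genes: Cox7a2, Cox6b2, Cox7c, Cycs, Uqcrh, Ndufb10, Atp5j2 and Atp5j. The members' share of 9.52% is near that of all genes. The members' median ratio to the fit was 1.56, against 1.36 for all genes. Among genes averaging at least 5 molecules per well, the medians were 1.57 for members and 1.56 for all genes. There 8 of 81 members were above noise, beside 14.5% of 3151 genes. No member passed at a limit of 3 times the fit, where 2.43% of all genes did, and none passed over the low-RNA wells, where 0.594% of all genes did.

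Cox7a2 had the largest ratio to the fit, 7.87, or 2.86 without well E02. Its lowest, median and highest RNA-rich levels were 3.98, 10.9 and 45.9. Uqcrfs1, the Rieske iron-sulfur subunit of complex III, had 0.326, 1.88 and 15.4, and its ratio of 6.33 was 0.964 without E02. Cox6b1 had 3.52, and 1.06 without E02. Cox6b2 had 3.85, and 2.34 without its highest well G05, where its level of 7.34 stood beside a median of 1.06 in the other RNA-rich wells. Cox7c, at 3.03, changed little without its highest well (2.89).

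**Figure D5:**
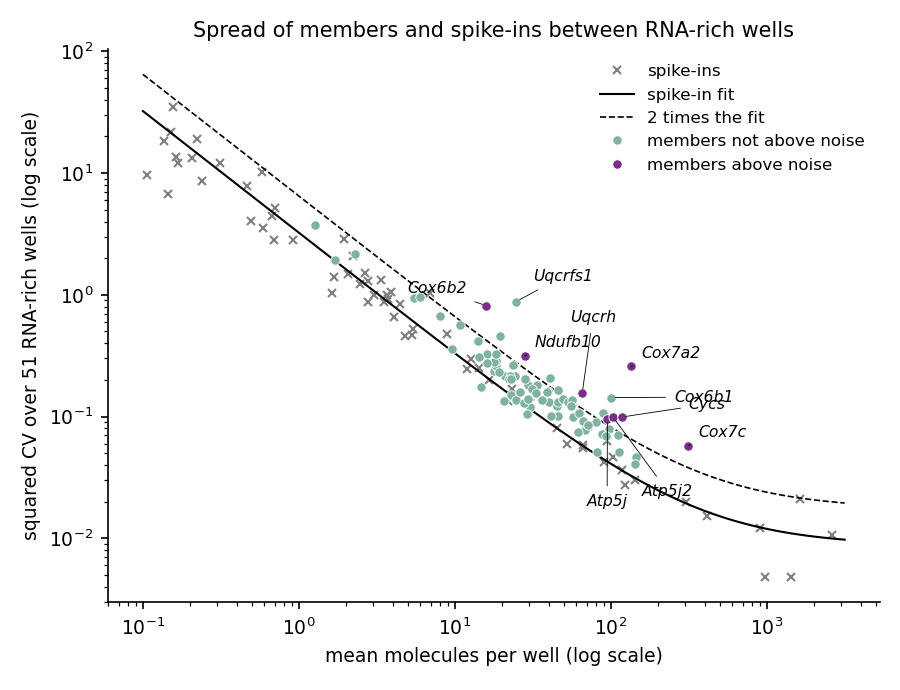
Squared CV over 51 RNA-rich wells against mean molecules per well, both on log axes, for members with a mean of at least 1 and for the spike-ins, with the spike-in fit and 2 times the fit. The 8 members above noise in all wells and without their highest well are in purple, and Uqcrfs1 and Cox6b1 lie above the dashed line only with well E02.

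Well E02 held the highest RNA-rich level of 8 of the 79 members, the most of any well, where the median well held 1 and D02 and B09 held 6 each. The share of all genes that were highest in E02 was not analysed. E02 and D02 held 54410 and 55334 gene molecules, against a median of 98750 in RNA-rich wells. Whether this lower depth plays a part in the high levels was not tested. In E02 Uqcrfs1 had 84 molecules, a level of 15.4 against a median of 1.87 in the other RNA-rich wells. Cox7a2 had 250 molecules (45.9 against 10.9), Cox6b1 156 (28.7 against 8.44) and Uqcrb 39 (7.17 against 1.57). Atp5f1 (10.5 against 3.75), Ndufab1 (10.3 against 4.40), Ndufa11 (6.98 against 3.29) and Cox7a2l (7.17 against 2.28, uncertain with 10.9% unique) were also highest there. In the same well Ndufa8 gave 0 molecules. Complex IV took 36.2% of E02's subunit molecules and complex III 17.9%, the highest of all RNA-rich wells, while complexes I (25.2%) and V (19.6%) took their lowest. Its summed level, 341, was close to the class median of 353. E02 had molecules of 12 of 13 feeder fibroblast markers (Postn was at 0) and of 12 of 13 ES cell markers, which summed to 29.4 per 10000. The feeder marker sum of 131 stood beside 2.96 to 46.9 in the RNA-rich wells other than E02 and D02 and 2.02 to 13.6 in low-RNA wells. D02, at 129 from 7 of the 13, with Col1a1, Col1a2, Col3a1, Thbs2, Thy1 and Postn at 0, was highest for Cox6a1, Ndufa13, Ndufb10, Ndufb6, Ndufc2 and Sdhc. The part of the other cell type in these levels was not tested.

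Well H12, counted as low-RNA with 16330 gene molecules, had a summed subunit level of 451, where the highest RNA-rich well had 405. Single members went both ways. Cox7c at 63.1 (103 molecules) and Cox8a at 24.5 (40 molecules) exceeded every RNA-rich well. So did Ndufb9 (10 molecules), Atp5j (24), Ndufa7 (23), Atp5c1 (16) and Sdhb (9). Other members lay far below the RNA-rich median, such as Ndufb10 at 0.262 times and Sdhc at 0.367 times, from 1 molecule each. The share of all genes that exceeded every RNA-rich well was not analysed. H12 gave 79.5 subunit molecules per 100 spike-ins, where the highest RNA-rich well gave 64.7, and its spike-in total was the lowest of all wells.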

How the data were processed

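The deposited values are molecule counts per gene and well, per the file headers, with no normalization applied to them. Each well column was checked to hold whole numbers and covers both sequencing runs of the cell. Multiply matched reads went to 1 exonic match and are part of the counts, per the file headers, and the deposited count of molecules from unique reads gave each member's unique share. Members under 50% are called uncertain: Cycs, Ndufb4, Cox7a2l, Atp5g2 and Cox5b. Bowtie and the builds mm10 and GRCm38 are named, without versions, per the submitters' processing notes.

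Levels are molecules per 10000 gene molecules, without spike-ins and repeats. Low-RNA wells held at most 40000 gene molecules and RNA-rich wells at least 50000. Class means were compared where their mean was at least 0.5, with a fold of 1.5 counted. Spike-ins averaging at least 0.1 molecules gave the noise fit, squared CV = a/mean + b. No doublet caller was run. The fold and noise rules were tested on simulated data. The simulation gave both classes a shared profile apart from a set of changed genes. It did not model the shift in mitochondrial RNA between the classes, so the fold calls are untested against it. Exact intervals and counts of 0 cover counting error only, and spike-ins varied more than single counting would give. Transcripts of 92 members were compared by BLAST 2.17.0+ with GENCODE M21 transcripts at 95% identity over at least 50% of their length, and 12 had a similar gene, nearly all of them pseudogenes outside the table. Of the members called uncertain, Atp5g2 was among the 12, while Cycs, Ndufb4, Cox7a2l and Cox5b had no similar gene by this rule. For those members the search did not find the source of the multiply matched reads.

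Genes named were the 3 highest of each complex, the 5 lowest and highest ratios, the 5 largest noise ratios, isoform sets, core and catalytic genes, members at 0, and genes that lead a well. A member that the rule names is counted in the totals and is not reported here. Members, lists and rules were chosen with earlier results of these data known. Alternatives without wells E02, H08 and H12 were added after seeing the data. Python 3.11.15, numpy 2.4.6, pandas 2.3.3, scipy 1.17.1 and matplotlib 3.10.9 were used.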

Additional observations from a re-analysis of the deposited data

How the results depend on the processing

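The lower level of subunit genes in low-RNA wells kept its direction under all alternatives run, while its size followed the denominator. For spike-in totals this direction was largely set by the class rule, and thinning leaves the expected shares of molecules unchanged. Neither is therefore a check of the direction. Without mitochondrially encoded genes in the total, the ratio of low-RNA over RNA-rich was 0.750 for all subunits, 0.745 for complex I, 0.748 for complex III and 0.740 for complex V, 17 members were lower by 1.5-fold, and the rank correlation with mitochondrial mRNA was -0.098. Relative to spike-in totals and without wells C03, H03 and H12, the ratio was 0.167 for all subunits, 0.166 for complex I, 0.162 for complex II, 0.159 for complex III, 0.179 for complex IV and 0.166 for complex V, and all 79 members that passed were lower, beside 2430 of 2512 genes. Among 43 named genes, the ratio was below 1 for 38 without mitochondrially encoded genes and for 41 after thinning to 8000 gene molecules, and for all in the alternatives that left out wells or used spike-ins. A fold limit of 2 left 10 members lower, beside 8.05% of all genes. In the other alternatives between 56 and 67 members were lower and 0 were higher, beside 34.4% to 42.5% of all genes lower.

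Thinned to 8000 gene molecules, which leaves fewer molecules per well, rank correlations were 0.017 for complexes I and II, 0.27 for I and III, 0.057 for I and V, -0.068 for II and III, -0.062 for II and V, 0.41 for III and IV, 0.17 for III and V, and -0.023 for IV and V.

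Members above noise numbered 32 of 85 with spike-in totals as the size of the well, beside 12.1% of all genes. At a limit of 1.5 they numbered 28 of 84, beside 19.2%. In both of these settings the members' share was above that of all genes. At a limit of 3 there were 0 (2.43% of all genes), and over low-RNA wells 0 (0.594%). Where the highest well was kept, members above noise numbered 15 of 84, a share no higher than that of all genes (18.8%). Without well E02 they numbered 7, without Atp5j. The cause of these differences was not tested. No paired analysis was possible because each column holds both library forms of 1 cell and no test was made. Low molecule numbers limit what can be read for members under 0.5 per 10000, complex II and the low-RNA wells.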
